A study of Mus musculus with 8 samples.

Results

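The SLAM family receptors are 9 genes of the deposited count table, Slamf1, Slamf6, Slamf7, Slamf8, Slamf9, Cd84, Cd48, Cd244 and Ly9, out of 24062 genes in all. They were taken by symbol, and the family was chosen by the counts of Slamf7 and Cd84, which were higher after deletion of PARP2 in these same libraries. The values of the 9 genes in that comparison therefore stand here as a description with no test. The study sequenced total RNA from immature myeloid cells (IMCs) to ask which genes differ when PARP1 or PARP2, enzymes that attach poly ADP-ribose to proteins, is deleted in the myeloid lineage. Bone marrow cells of 2-month-old mice were kept in culture for 3 days in M-CSF (40 ng per mL), a growth factor for macrophages and their precursors. There were 4 groups of 2 libraries. PARP1 WT mice were PARP1 flox/flox without Cre, and PARP1CKO mice were PARP1 flox/flox with lysozyme-Cre, which is active in cells of the myeloid lineage. PARP2 WT mice were PARP2 flox/flox without Cre, and PARP2CKO mice were PARP2 flox/flox with the same Cre. The label of every library gives the strain as C57BL/6, and all groups carry a floxed allele. The series is described as biological duplicates, but the labels do not say which libraries came from separate cultures, so the p-values measure only the spread between these libraries.

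SLAM receptors are immunoglobulin-like proteins on the surface of blood cells. Most of them bind a copy of themselves on a neighboring cell, whereas CD48 is the ligand of CD244. Most members, but not all, carry cytoplasmic tyrosines that recruit small adaptors of the SAP family, which link them to Src family kinases. Where these adaptors are absent, the same tyrosines can recruit inhibitory phosphatases. In macrophages, SLAMF7 takes part in the engulfment of blood cells together with the integrin Mac-1, SLAMF1 binds bacterial membrane proteins and enters the phagosome, and SLAMF8 restrains the oxidative burst. The genes form a cluster on mouse chromosome 1 that is known for alternative haplotypes in inbred strains.

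Between 37852450 and 61845125 counts per library fell on genes. Values are CPM, the counts of a gene scaled to a common library total with edgeR's TMM factors, and all 9 receptors were among the 13197 genes left by a filter on low counts. Parp1 stood at 202 and 211 CPM in the PARP1 WT libraries and at 63.2 and 59.1 CPM in PARP1CKO. For Parp2 the PARP2 WT libraries gave 48.2 and 48.3 CPM and the PARP2CKO libraries 25.7 and 25.6 CPM. Each targeted gene was thus lower, though still counted, in the libraries labelled as its deletion. Parp2 was at 39.1 and 40.8 CPM in PARP1 WT, lower than in PARP2 WT (edgeR's quasi-likelihood test, adjusted p = 0.0159). Parp1 was uneven within PARP2 WT, at 251 and 155 CPM, beside 263 and 264 CPM in PARP2CKO. The study describes IMCs as positive for CD11b and Gr1. Itgam (CD11b) was at 881 to 1035 CPM, and Gr1 was not assessed here. Csf1r (the M-CSF receptor), which is not part of that description, was at 1134 to 1273 CPM. Macrophage markers were also high, with 1546 to 1957 CPM of Cd68 and 516 to 809 CPM of Mrc1. The 10 markers of T and NK cells, other cells that carry SLAM receptors, summed to between 1.43 and 2.32 CPM in a library, and Ncr1, Gzma and Prf1 never exceeded 3 counts. In bulk RNA, fewer cells that express a gene and less of its RNA per cell cannot be told apart.

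Gene positions were read from GENCODE M21 (GRCm38, which is mm10). The 9 genes lie on chromosome 1 between 171559193 and 172590568, a span of 1.03 Mb. The first 7 are packed into 394 kb. They are Cd244 (171559193 to 171609746, plus strand, listed there as Cd244a), Ly9 (171588624 to 171607410, minus strand), Slamf7 (171632403 to 171653035, minus strand), Cd48 (171682009 to 171705258, plus strand), Slamf1 (171767127 to 171801184, plus strand), Cd84 (171839697 to 171890718, plus strand) and Slamf6 (171917515 to 171953170, plus strand). After a gap of 522 kb come Slamf9 (172475358 to 172478575, plus strand) and Slamf8 (172581758 to 172590568, minus strand), with 103 kb between them. Ly9 lies inside the span of Cd244 on the opposite strand, and their exons share 0 bases. Exons of Slamf7 share 423 bases with the antisense gene Gm37787. The library kit keeps the strand, but whether counting used it is not given in the sources used here, so a contribution of Gm37787 to the counts of Slamf7 was not tested. Parp1 itself lies 7.98 Mb beyond Slamf8 on the same chromosome.

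RefSeq promoter windows (GRCm38.p6) of 250 bases before the start were matched for 8 of the 9 genes, all except Ly9. Of 7 short motifs searched on both strands, the letters of the AP-1 site, TGANTCA, were found in the most windows together with the E-box CACGTG. AP-1 letters stood in Slamf7, Cd84 and Cd244, 3 of 8 windows, and are held by 6.75% of all 32851 windows of that length. The E-box stood in Cd244, Slamf8 and Slamf9 and is held by 6.02%. Slamf8 alone held the interferon-response letters, GAAA and again GAAA with any 2 bases between them (2.98% of windows), Slamf9 alone the PU.1 letters GAGGAAGT (2.44%), and Cd244 alone the C/EBP letters TTGCNNAA (9.56%). The NF-kB letters, GGG and CC with any 5 bases between them, which 45.8% of windows hold, stood in Cd84 and Slamf6, and TATAAA stood in none of the 8 (12.4% of windows). No match overlapped another. A match describes letters only, and binding was not measured. The 4 windows printed are the 3 with AP-1 letters and that of Slamf8, the receptor whose CPM varied most over all 8 libraries. They read 5′ to 3′ on the gene's strand, without bases of an annotated exon (for Slamf7 the last 8 bases before the start are left out for this reason, so 242 are printed), with AP-1 letters of Slamf7, Cd84 and Cd244 and the interferon-response letters of Slamf8 in capitals. Slamf7 is at chr1:171649008-171649249 (minus strand), inside the longer GENCODE span of the gene, Cd84 at chr1:171839447-171839696 (plus), Cd244 at chr1:171558943-171559192 (plus) and Slamf8 at chr1:172590569-172590818 (minus).
Slamf7: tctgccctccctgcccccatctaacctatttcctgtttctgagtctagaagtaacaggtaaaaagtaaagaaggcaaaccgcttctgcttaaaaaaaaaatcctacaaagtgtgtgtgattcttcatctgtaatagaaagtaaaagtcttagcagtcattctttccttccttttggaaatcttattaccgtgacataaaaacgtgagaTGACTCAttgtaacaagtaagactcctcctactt
Cd84: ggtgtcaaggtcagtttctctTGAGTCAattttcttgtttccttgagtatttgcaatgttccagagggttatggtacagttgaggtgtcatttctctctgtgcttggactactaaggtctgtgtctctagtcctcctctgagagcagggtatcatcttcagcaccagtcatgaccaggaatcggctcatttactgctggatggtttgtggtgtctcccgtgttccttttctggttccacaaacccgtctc
Cd244: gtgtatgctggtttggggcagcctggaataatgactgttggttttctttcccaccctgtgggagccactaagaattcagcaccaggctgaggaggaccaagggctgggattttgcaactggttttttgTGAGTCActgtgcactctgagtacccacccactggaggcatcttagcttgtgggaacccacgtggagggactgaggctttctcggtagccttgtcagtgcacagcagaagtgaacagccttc
Slamf8: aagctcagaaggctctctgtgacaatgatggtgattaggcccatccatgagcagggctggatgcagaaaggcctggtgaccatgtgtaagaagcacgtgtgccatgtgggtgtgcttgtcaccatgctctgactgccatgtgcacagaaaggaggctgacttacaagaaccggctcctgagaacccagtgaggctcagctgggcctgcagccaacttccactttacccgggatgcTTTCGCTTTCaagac
Counted back from the start, left-out bases included, the AP-1 letters of Slamf7 lie at -42 to -36, those of Cd244 at -122 to -116 and those of Cd84 at -229 to -223. The interferon-response letters of Slamf8, read on the other strand, lie at -15 to -6.

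Levels of different genes were compared per length, as CPM per kb of merged exons. The cultures expressed the family very unevenly. The mean over 8 libraries was 106 ± 8.76 CPM per kb (SD, n = 8) for Cd48, which encodes a lipid-anchored ligand without a signaling tail, 83.4 ± 5.52 for Cd84, a receptor that binds itself, and 72.4 ± 3.13 for Ly9, another self-binding receptor. Slamf7 followed with 26.8 ± 4.58 CPM per kb. These 4 genes made up 96.3% of the summed level of the family. The remaining 5 were Slamf9 at 6.86 ± 1.30, Slamf8 at 2.32 ± 0.889, Cd244 (the receptor for CD48) at 1.28 ± 0.288, Slamf1 at 0.419 ± 0.133 and Slamf6 at 0.0999 ± 0.0195 CPM per kb. From Cd48 to Slamf6 the mean level per kb of merged exons differed 1060-fold. Libraries of neighbors in this order kept apart except for Cd84 and Ly9, whose ranges met although Cd84 was higher in 8 of 8 libraries, and Slamf8 and Cd244, where Slamf8 was higher in 7 of 8. The length used decides which gene leads. Over the coding length Cd84 had 509 and Cd48 had 175 CPM per kb, over the longest transcript they had 152 and 106, and the order of the other 7 genes was kept under both. The spread of levels also depends on the length, since Slamf6 had 0.910 CPM per kb over the coding length and 0.189 over the longest transcript, so its distance to Cd48 was smaller under both than with merged exons.

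**Figure D1:**
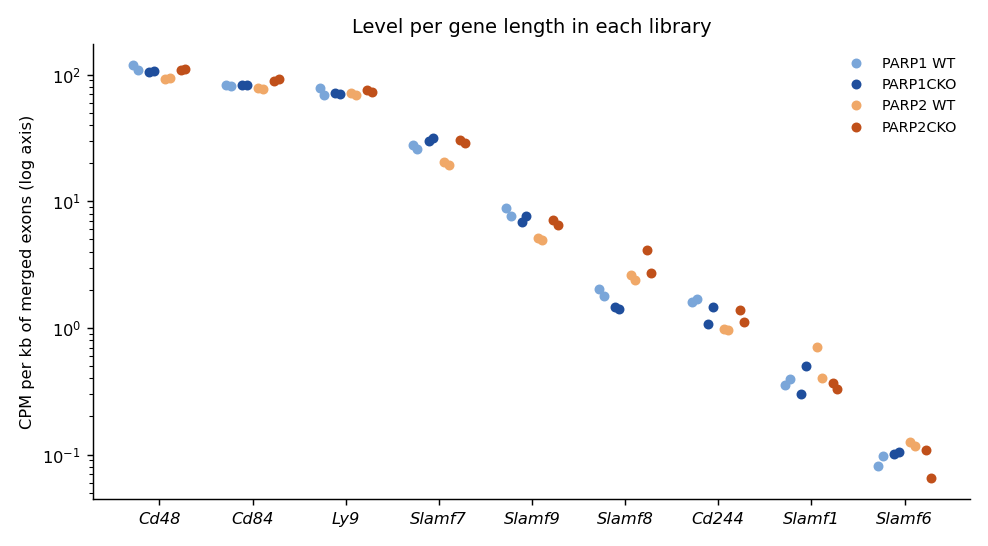
Level of each SLAM family receptor in CPM per kb of merged exons (log axis), with 1 point per library and colors for the 4 groups. Cd48, Cd84, Ly9 and Slamf7 lie between 19.4 and 120 CPM per kb in every library, and Slamf6 lies at or below 0.126.

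Across the 8 libraries the most abundant receptors varied least. The coefficient of variation of the CPM was 4.33% for Ly9, 6.62% for Cd84 and 8.28% for Cd48, against 17.1% for Slamf7, 18.9% for Slamf9 and 22.4% for Cd244. Slamf8 had the largest, 38.4%, with 12.8 CPM in PARP2CKO replicate 1 and 4.36 to 8.30 CPM in the other libraries. Slamf1 (31.7%) and Slamf6 (19.5%) rest on few reads, with 84 to 254 counts per library for Slamf1 and 34 to 79 for Slamf6. The part of counting error in their spread was not tested. Slamf1 was at 4.39 CPM in PARP2 WT replicate 1 and at 1.84 to 3.05 CPM in the other libraries.

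**Figure D2:**
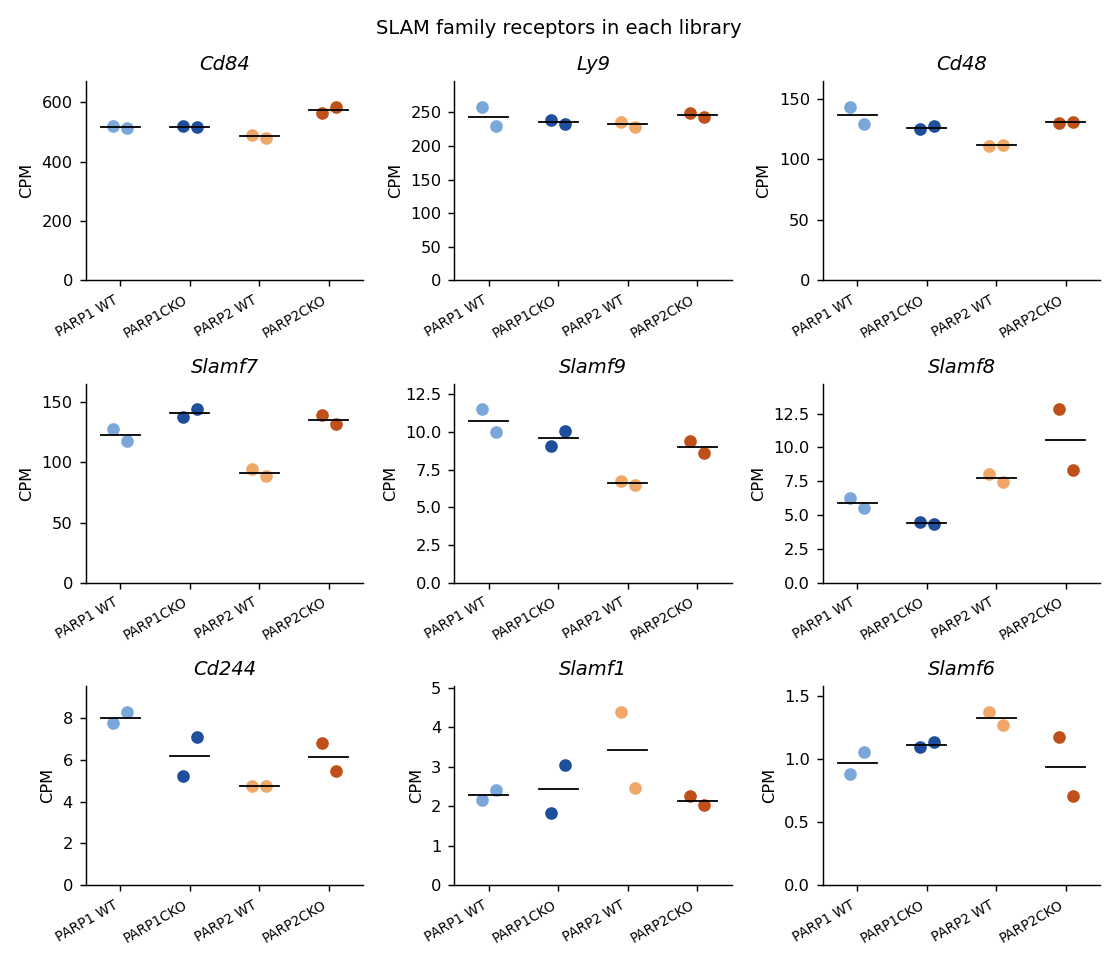
CPM of each receptor in the 2 libraries of each group (points) with the group mean (line), on axes that start at 0. In Slamf7, Slamf9, Cd84, Cd48 and Cd244 both PARP2 WT libraries are the lowest of the 8.

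Deletion of PARP1 is the comparison that the choice of the family did not use, and in it the receptors were tested. With edgeR's quasi-likelihood test, 0 of the 9 reached a Benjamini-Hochberg adjusted p under 0.05 over all genes (0.106% of all genes tested passed), and 2 of them, Slamf7 and Cd244, had an unadjusted p-value under 0.05 (11.3% of all genes). DESeq2 and edgeR's likelihood-ratio test also called 0 of 9, although DESeq2 gave no adjusted p-value for Slamf6. Libraries of the groups did not overlap for 5 of the 9, Slamf6 and Slamf7 higher and Slamf8, Cd48 and Cd244 lower in PARP1CKO, where 41.2% of all genes tested did not overlap (21.0% higher and 20.2% lower). The median log2 fold change of the 9 was -0.05, and that of all genes was 0.01. A log2 fold change written with ± carries its standard error.

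Slamf7 was measured at 128 and 118 CPM in the control libraries and at 138 and 144 CPM in PARP1CKO. Both PARP1CKO libraries lay above both controls. The log2 fold change of 0.19 had a standard error of 0.0538 and did not pass (quasi-likelihood test, adjusted p = 0.287), and the other settings gave adjusted p-values from 0.142 to 0.508. Cd84 reached 521 and 514 CPM in the controls and 519 and 515 CPM in PARP1CKO. Its groups overlapped, and the log2 fold change was 0.00 ± 0.0406 (standard error; same test, adjusted p = 0.996).

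Ly9 also overlapped, with 258 and 229 CPM in the controls and 238 and 232 CPM in PARP1CKO (log2 fold change -0.05 ± 0.0566, same test, adjusted p = 0.756). The ligand Cd48 had 143 and 129 CPM against 125 and 127 CPM in PARP1CKO. Its receptor Cd244 had 7.75 and 8.30 CPM against 5.23 and 7.12 CPM. The pair was thus lower in both PARP1CKO libraries, but neither gene passed. Cd48 had a log2 fold change of -0.11 ± 0.05 (adjusted p = 0.458, quasi-likelihood test) and Cd244 one of -0.38 ± 0.156 (adjusted p = 0.415). Both values rest in part on 1 library, since Cd48 went to -0.03 without PARP1 WT replicate 1 and Cd244 to -0.18 without PARP1CKO replicate 1.

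For Slamf8 the controls gave 6.25 and 5.50 CPM and the PARP1CKO libraries 4.46 and 4.36 CPM, again without overlap (log2 fold change -0.41 ± 0.196, quasi-likelihood test, adjusted p = 0.460). Slamf9, a receptor of macrophages and dendritic cells that lacks the tyrosine motif of most of its relatives, had 11.5 and 10.0 CPM against 9.08 and 10.1 CPM. The groups overlapped for Slamf9 (log2 fold change -0.16, adjusted p = 0.557, and -0.07 without PARP1 WT replicate 1). The low Slamf1 had 2.17 and 2.42 CPM against 1.84 and 3.05 CPM, and Slamf6, a self-binding receptor best known from lymphocytes, had 0.879 and 1.05 CPM in the controls and at least 1.09 CPM in both PARP1CKO libraries. The PARP1CKO libraries of Slamf1 lay on either side of the controls and those of Slamf6 just above them (same test, adjusted p = 0.942 and 0.811).

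Deletion of PARP2 is the comparison in which Slamf7 and Cd84 led to the choice of the family. Slamf7 was at 94.1 and 88.8 CPM in the PARP2 WT libraries and at 139 and 132 CPM in PARP2CKO. The PARP2CKO libraries were both higher, with a fold of 1.48 and a log2 fold change of 0.57 (standard error 0.0539). Cd84 had 489 and 481 CPM against 563 and 584 CPM, a fold of 1.18 (log2 fold change 0.24, standard error 0.0406). Leaving out single libraries kept the log2 fold change of Slamf7 within 0.53 to 0.61 and that of Cd84 within 0.21 to 0.27. Both genes were chosen on these libraries, so these ranges are a description and no measure of how stable the differences are.

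The ligand Cd48 was at 111 and 112 CPM in the PARP2 WT libraries and at 130 and 131 CPM in PARP2CKO. The group means were 111 ± 0.649 and 130 ± 0.579 CPM (SD, n = 2), and the log2 fold change was 0.23 (standard error 0.0498). Slamf9 had 6.78 and 6.48 CPM against 9.39 and 8.59 CPM. It was higher in both PARP2CKO libraries by 1.36-fold (log2 fold change 0.44, standard error 0.102). Ly9 had 236 and 228 CPM against 249 and 243 CPM, a log2 fold change of 0.08 (standard error 0.0564).

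Other receptors leaned on 1 library. Slamf8 was at 8.01 and 7.42 CPM in the PARP2 WT libraries and at 12.8 and 8.30 CPM in PARP2CKO, and the log2 fold change of 0.46 shrank to 0.11 without PARP2CKO replicate 1. Cd244 had 4.74 and 4.73 CPM against 6.79 and 5.45 CPM, and went from 0.37 to 0.20 without the same library. The low receptors pointed the other way. Slamf1 was at 4.39 and 2.46 CPM in the PARP2 WT libraries and at 2.25 and 2.03 CPM in PARP2CKO, and its log2 fold change of -0.68 became -0.20 without PARP2 WT replicate 1. Slamf6 had 1.37 and 1.27 CPM against 1.17 and 0.704 CPM, with a log2 fold change of -0.47 that became -0.17 without PARP2CKO replicate 2 and -0.90 without PARP2CKO replicate 1. Groups did not overlap in any of the 9 genes, 7 higher and 2 lower in PARP2CKO, beside 37.2% of all genes tested (18.4% higher and 18.8% lower), and nothing is read from that count since this comparison chose the family. In 4 of the 9, Slamf6, Slamf8, Cd48 and Cd244, the groups did not overlap in either deletion and lay in opposite directions, beside 6.62% of all genes tested, a count that uses the same comparison. The median log2 fold change of the 9 was 0.24 and that of all genes 0.00.

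**Figure D3:**
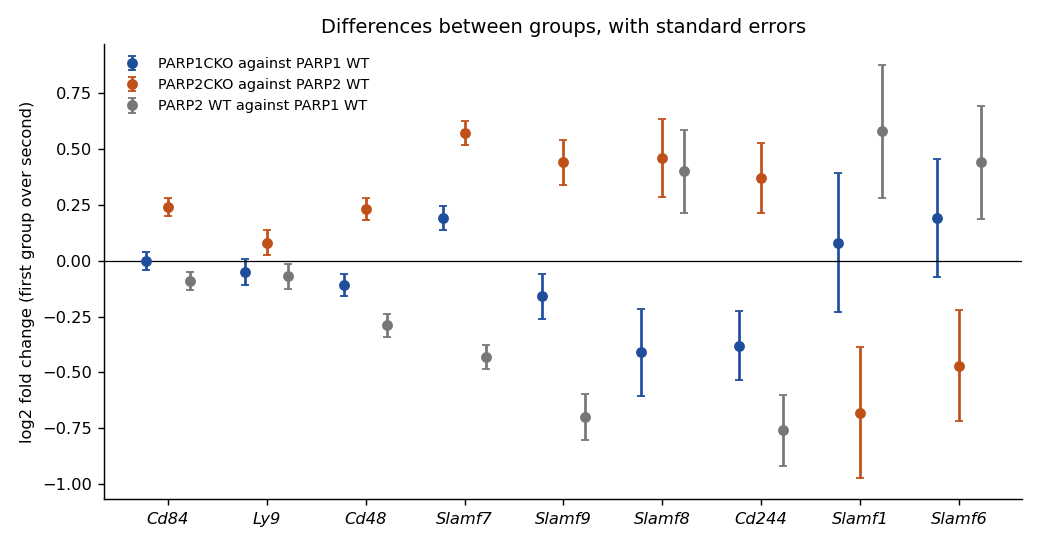
Log2 fold change of each receptor (points) with its standard error (bars) for deletion of PARP1, deletion of PARP2 and PARP2 WT against PARP1 WT. The values for Slamf7 are 0.19, 0.57 and -0.43 in that order, and the last 2 comparisons share the PARP2 WT libraries.

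Both control groups are floxed mice without Cre, and they were set side by side. This comparison shares the PARP2 WT libraries with the deletion of PARP2, so a low PARP2 WT value alone moves both, in opposite directions, and the receptors are again only described. Slamf7 was 0.741-fold as high in PARP2 WT as in PARP1 WT (log2 fold change -0.43, standard error 0.0542). Slamf9 had a log2 fold change of -0.70 (standard error 0.102), Cd244 of -0.76 (standard error 0.158) and Cd48 of -0.29 (standard error 0.05), while Cd84 was close to 0 at -0.09 (standard error 0.0406). Slamf1 (0.58), Slamf6 (0.44) and Slamf8 (0.40) were higher in PARP2 WT, Slamf1 again by PARP2 WT replicate 1, without which it had 0.10. Ly9 overlapped (-0.07, and 0.02 without PARP1 WT replicate 1). For 8 of 9 receptors the control groups did not overlap, beside 51.9% of all genes tested.

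In 5 of the 9 receptors, Slamf7, Slamf9, Cd84, Cd48 and Cd244, both PARP2 WT libraries were lower than all 6 other libraries, whereas 2.58% of all genes tested had this order. Slamf7 reached at most 94.1 CPM in PARP2 WT and lay between 118 and 144 CPM in the other 6 libraries (133 ± 9.17 CPM, SD, n = 6). The PARP2CKO libraries of Slamf7 were within the range of the 4 PARP1 libraries. For Slamf9 the PARP2 WT libraries reached 6.78 CPM against 8.59 to 11.5 CPM elsewhere, and for Cd48 they reached 112 CPM against 125 to 143 CPM. Cd84 differed from these in that its PARP2CKO libraries (563 and 584 CPM) were also above all 4 PARP1 libraries (514 to 521 CPM). Slamf6 had both PARP2 WT libraries above the other 6, as had 2.83% of all genes. These counts describe the libraries used for choosing the family and are not tested.

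The chromosome around the receptors was examined next. Of 70 other genes of the count table within 1 Mb of a receptor, 48 passed the filter. In 10 of these 48 (20.8%) both PARP2 WT libraries were the lowest of the 8, beside 2.58% of all genes tested. In 4 (8.33%) they were the highest, beside 2.83%. These libraries were used for choosing the family, so the counts are a description with no test. Between PARP2 WT and PARP1 WT, 5 of the 48 were called at an adjusted p under 0.05 by the quasi-likelihood test, where 3.16% of all genes tested passed. Igsf8, encoding an immunoglobulin-like membrane protein, was at 66.9 and 75.4 CPM in the PARP1 WT libraries and at 116 and 125 CPM in PARP2 WT (log2 fold change 0.76 ± 0.0719, quasi-likelihood test, adjusted p = 0.00147). Kcnj10, a potassium channel gene, had 0.414 and 0.464 against 1.63 and 1.38 CPM (log2 fold change 1.77, adjusted p = 0.0176). Lower in PARP2 WT were Fcrla, an Fc receptor-like gene of B cells (log2 fold change -1.62, adjusted p = 0.0290), Dusp23, a phosphatase gene (-0.46, adjusted p = 0.0314), and Alyref2, a relative of an RNA export factor (-0.47, adjusted p = 0.0495, all from the same test). Without PARP1 WT or PARP2 WT replicate 1 or 2 in turn, Igsf8 was the 1 gene of the 5 that still passed, with adjusted p-values of at most 0.0171 over the settings tried. The adjusted p-value reached 0.136 for Kcnj10, 0.167 for Fcrla, 0.181 for Dusp23 and 0.248 for Alyref2.

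For the 2 deletions, the quasi-likelihood test called 0 of the 48 neighbors at an adjusted p under 0.05. Of all genes, 0.106% passed after deletion of PARP1 and 0.0530% after deletion of PARP2. After deletion of PARP2, 8 of the 48 had an unadjusted p-value under 0.05, 5 higher and 3 lower in PARP2CKO (16.7%, beside 4.83% of all genes), and DESeq2 called 0 and the likelihood-ratio test 2, Kcnj10 and Dusp23. Dusp23 was at 7.70 and 8.53 CPM in the PARP2 WT libraries and at 11.9 and 11.1 CPM in PARP2CKO. Kcnj10 had 1.63 and 1.38 CPM against 0.671 and 0.373 CPM. Ncstn, a subunit of gamma-secretase, had 148 and 146 CPM in PARP2 WT beside 163 and 166 CPM in PARP1 WT, and 167 and 165 CPM in PARP2CKO. These 3 genes had PARP2CKO means nearer to PARP1 WT than the PARP2 WT means were, in 2 comparisons that share the PARP2 WT libraries. Their log2 fold changes were 0.50 for Dusp23, -1.5 for Kcnj10 and 0.18 for Ncstn (quasi-likelihood test, adjusted p = 0.267, 0.366 and 0.485). Of the 8 genes with an unadjusted p-value under 0.05, Alyref2, Pigm and Tagln2 also had this order, which makes 6 of 8, beside 128 of the 637 genes with such a p-value (20.1%). The genes were selected on the PARP2 WT libraries, so this is a description with no test. Aim2 (means of 59.5, 51.7 and 43.9 CPM in PARP1 WT, PARP2 WT and PARP2CKO) and Ackr1 (0.184, 0.238 and 0.112 CPM) were farther from PARP1 WT in PARP2CKO than in PARP2 WT. Among the genes called between the controls and not among these 8, Igsf8 had 112 and 107 CPM in PARP2CKO, closer to PARP2 WT than to PARP1 WT, and the mean of Fcrla was 1.54 CPM in PARP1 WT, 0.496 in PARP2 WT and 0.441 in PARP2CKO. After deletion of PARP1, 2 of the 48 neighbors (4.17%) had an unadjusted p-value under 0.05, beside 11.3% of all genes. DESeq2 called 0 and the likelihood-ratio test 1, Pcp4l1. The 3 with the smallest p-values were Pcp4l1 (log2 fold change 0.37, adjusted p = 0.257), Igsf8 (0.18, adjusted p = 0.405) and Fcrla (0.56, adjusted p = 0.455, each by the quasi-likelihood test).

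**Figure D4:**
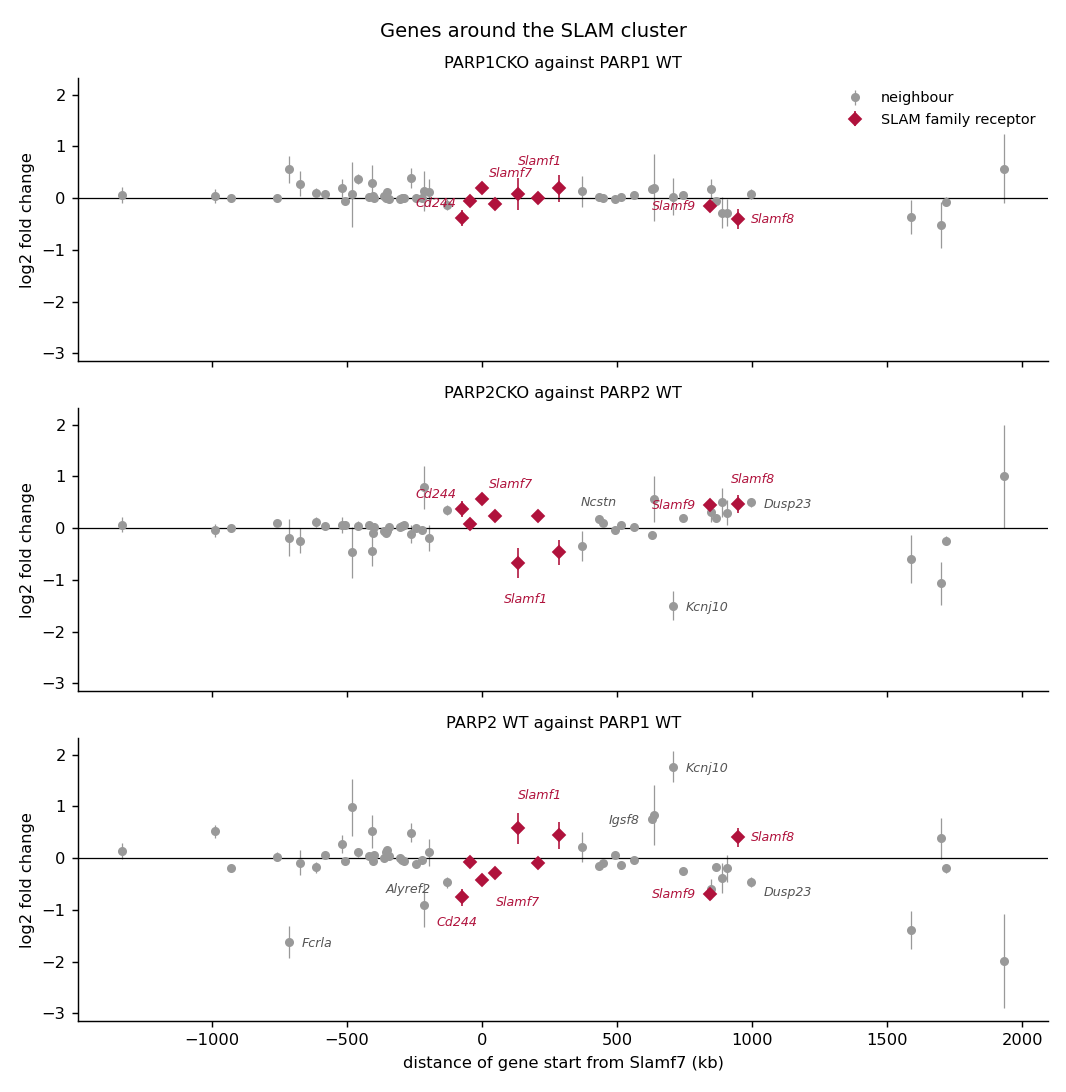
Log2 fold change (with its standard error) of the 9 receptors (diamonds) and the 48 neighbors (circles) against the distance of each gene's lower coordinate from that of Slamf7 in kb, for the 3 comparisons. The values of Kcnj10 are -1.5 for deletion of PARP2 and 1.77 between the controls, and those of Slamf7 are 0.57 and -0.43.

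Ifi202b, an interferon-inducible gene whose start is 1.37 Mb beyond Slamf8 (chromosome 1, 173962568 to 173982744), separated the same libraries. The PARP2 WT libraries held 1150 and 1028 counts of it. Neither PARP2CKO library held any, which is at least 353-fold lower when 3 counts in each library are taken as the floor. Of the PARP1 libraries, 1 PARP1CKO library (replicate 2) held 13 counts and the other 3 held 0. The 2 libraries rich in Ifi202b were those with the lowest Slamf7. The labels give 1 strain for all libraries, no genotype at the cluster was read here, and whether the groups carry the same SLAM haplotype was not tested. Line and floxed gene cannot be told apart between the 2 control groups.

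The proteins through which SLAM receptors signal were taken as a list of 27 genes, 25 of which passed the filter. The quasi-likelihood test called 0 of the 25 at an adjusted p under 0.05 in each of the 3 comparisons. Of all genes tested, it called 0.106% after deletion of PARP1, 0.0530% after deletion of PARP2 and 3.16% between the controls. DESeq2 and the likelihood-ratio test also called 0 of the 25 in each comparison. At an unadjusted p-value under 0.05, 2 of 25 were lower after deletion of PARP1 (8%, beside 11.3% of all genes), 0 differed after deletion of PARP2, and 1 was higher and 5 lower between the controls (24.0%, beside 18.9% of all genes). Their median log2 fold changes were -0.01, 0.01 and -0.02. For the difference of the 2 deletion effects, 0 of the genes in this list and 0 of the neighbors passed (0.0152% of all genes), with the quasi-likelihood test.

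Of the adaptors, the Sap gene Sh2d1a had 1 count in 1 PARP2CKO library and 0 elsewhere, and Sh2d1b2 had 0 in all 8. The third, Sh2d1b1, was the 1 adaptor with more than 1 count in a library. Its libraries gave 8.68 and 8.81 CPM for PARP1 WT, 6.01 and 5.68 for PARP1CKO, 7.52 and 5.71 for PARP2 WT, and 7.51 and 5.53 for PARP2CKO. It was lower in both PARP1CKO libraries without passing the threshold (log2 fold change -0.58 ± 0.166, quasi-likelihood test, adjusted p = 0.287), and the PARP2 groups overlapped (-0.02). The kinase Syk was the other gene with an unadjusted p-value under 0.05 after deletion of PARP1, with 320 and 318 CPM against 299 and 294 CPM (log2 fold change -0.10). In the partner list, Cd2 alone had both PARP2 WT libraries lowest (1 of 25, 4.00%, beside 2.58% of all genes tested), at 6 and 7 counts.

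**Figure D5:**
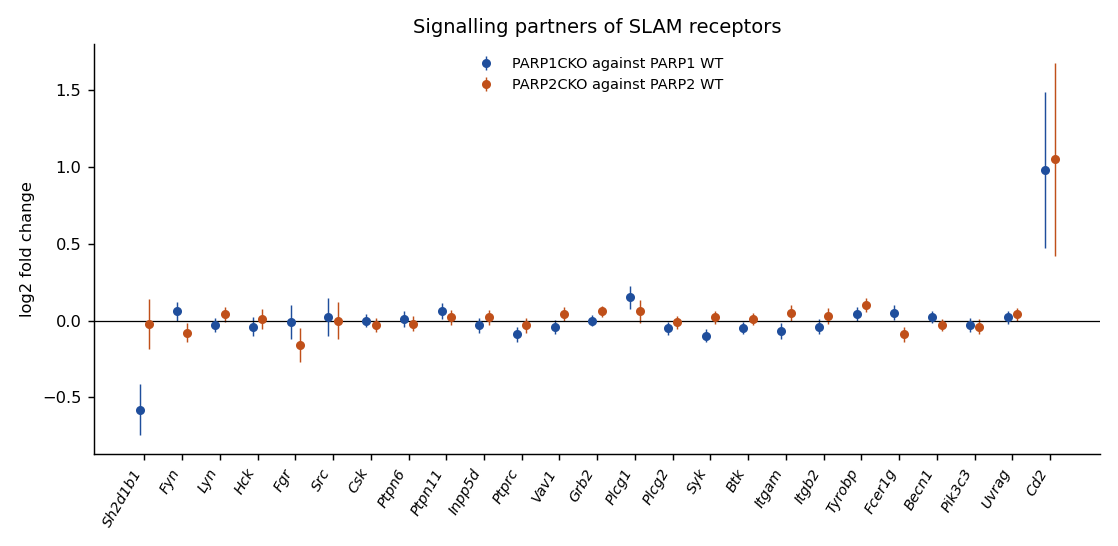
Log2 fold change with its standard error of the 25 signaling partners that passed the filter, after deletion of PARP1 and of PARP2. Most points lie near 0, Sh2d1b1 is at -0.58 after deletion of PARP1, and Cd2, which has at most 35 counts in a library, has the widest bars.

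Marker levels of other cells were set beside the receptors. Over the 10 markers of B and plasma cells, 9 of which passed the filter, the sum was 31.1 to 36.9 CPM in PARP1 WT, 32.7 to 46.5 in PARP1CKO, 12 to 13.5 in PARP2 WT and 9.35 to 12.2 in PARP2CKO. The 6 markers of basophils and mast cells summed to 18.5 to 20.5, 14.8 to 20.9, 11.1 to 12.6 and 8.13 to 10.5 CPM in the same order. The 6 stem and progenitor markers summed to at least 96.4 CPM in each PARP1 library and to between 83.9 and 96 CPM in the PARP2 libraries. These 3 sums were lower in the PARP2 groups. The 4 granulocyte progenitor markers were higher there, with sums of 256 to 302 CPM over the PARP1 libraries and 347 to 392 over the PARP2 libraries. For the 8 macrophage and monocyte markers the sum was 5266 and 5453 CPM in the PARP2 WT libraries against 5714 and 5479 CPM after deletion, and for 8 neutrophil markers 3325 and 3102 against 3074 and 2712 CPM. Single markers differed in direction. Without overlap, the macrophage marker Emr1 was at 524 and 531 against 630 and 594 CPM, the monocyte marker Ly6c2 at 72.2 and 71.9 against 61.0 and 60.7 CPM, and the neutrophil marker Retnlg at 9.84 and 13.0 against 7.59 and 7.27 CPM. Their log2 fold changes were 0.21, -0.24 and -0.61 (quasi-likelihood test, adjusted p = 0.704, 0.704 and 0.371). Emr1 was also higher without overlap after deletion of PARP1, at 534 and 495 against 588 and 556 CPM (0.15, same test, adjusted p = 0.355). In that comparison Ly6c2 overlapped and Retnlg was lower without overlap (-0.14). After deletion of PARP2, the neutrophil markers S100a8, S100a9, Ltf and Csf3r were also lower without overlap. Ngp, Camp and Mmp8 overlapped, with 0.16 for Mmp8. Csf1r, Cd68, Itgam, Ccr2, Cx3cr1 and Mrc1 overlapped as well. The part of these cells in the receptor values was not tested.

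Over the 8 libraries, the genes whose log2 CPM followed Slamf7 most closely were 9430069I07Rik (Pearson r = 0.973), Ncstn (0.967), Ugt1a7c (0.962), BC021785 (0.960) and Eif4e2 (0.939). Ncstn is also among the neighbors on chromosome 1, from 172066013 to 172082795. For Cd84 they were Eif1 (0.970), Ube2k (0.951), Rnf187 (0.932), Leprot (0.914) and Sufu (0.913). Within the family, Slamf7 had r = 0.813 with Slamf9, 0.781 with Cd48 and 0.710 with Cd84, and -0.516 with Slamf1 and -0.508 with Slamf6. Spearman's rho was nearer 0 for these pairs, at 0.548, 0.381, 0.643, -0.310 and -0.262 in that order. These correlations describe 8 libraries that share their groups and depths, and no p-value is given. The lists change easily, since ranking by Spearman's rho shared 3 of the 5 genes for Slamf7 and 2 of the 5 for Cd84 (3 where a tie at the fifth place is counted), and without PARP1CKO replicate 2 the list of Slamf7 shared 0.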

How the data were processed

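The authors mapped single-end reads of stranded total RNA from 8 libraries to mm10, counted them with featureCounts and deposited raw counts by gene. The submitters' processing notes name FastQC 0.11.2, TopHat2 2.0.12, Picard 1.127, Subread and edgeR. The annotation, the strand setting of the counting and whether marked duplicates were left out are not given in the sources used here. The study names edgeR with a false discovery rate of 0.05 on FPKM, whereas counts were tested here, as the deposited unit asks.

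Counts were scaled by library size and TMM factors (0.9647 to 1.026) and filtered with filterByExpr. Each group had its own mean in 1 fit over all 8 libraries, tested with the quasi-likelihood test of edgeR 4.0.16 (R 4.3.3) with Benjamini-Hochberg adjustment over 13197 genes at 0.05. Standard errors are the log2 fold change divided by the square root of F. With 2 libraries per group an exact two-sided permutation test of 1 gene cannot go below p = 0.333, so p-values come from the model. The 2 libraries of a group were further apart than counting noise (chi-square per gene 8.69 to 13.1), so they were not taken for copies of 1 library. Columns of no sample used were 0. The fit was also run on simulated counts in which every gene had the same spread. That setting is simpler than these data, so nothing is concluded from it. The floor for Ifi202b covers counting error only.

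The genes named are the 9 receptors, Parp1, Parp2, Ifi202b, the partners that were called or are adaptors, the neighbors that were called or else the 3 with the smallest p, and the 5 genes most like Slamf7 and Cd84. Genes outside this rule, such as Syk, Cd2, Itgam, Csf1r, Emr1, Ly6c2, Retnlg, Aim2 and Ackr1, were named after their values were seen. Members and lists were chosen with earlier results of these data known. Emr1 and Igj stand for Adgre1 and Jchain in the marker lists, and Ly6g was not used here. Alternatives were DESeq2 1.42.0 and its size factors, library size only, a likelihood-ratio test, a fit of the 4 libraries of a comparison, no filter, 1 CPM in 2 libraries, a replicate block, other gene lengths, Spearman's rho and leaving out each library. Protein sequences were not analysed here.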

Additional observations from a re-analysis of the deposited data

Results flagged for a closer look

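For 4 receptors the libraries of the 2 deletions lay on opposite sides of their controls, as they did for 6.62% of all genes tested. None of the 4 passed the threshold after deletion of PARP1 (edgeR's quasi-likelihood test), their values after deletion of PARP2 have no test, and the difference between the deletions was not tested, because deletion of PARP2 entered the choice of the family. Both PARP1CKO libraries of Cd48 lay below their controls (log2 fold change -0.11), and both PARP2CKO libraries lay above theirs (0.23). Its receptor Cd244 had -0.38 and 0.37, and Slamf8 had -0.41 and 0.46. Slamf6 had the reverse order, with 0.19 after deletion of PARP1 and -0.47 after deletion of PARP2. Its value after deletion of PARP1 was 0.08 without PARP1 WT replicate 1 and 0.33 without PARP1 WT replicate 2, and those of Cd48 and Cd244 became -0.03 without PARP1 WT replicate 1 and -0.18 without PARP1CKO replicate 1. The values for Slamf8 and Cd244 after deletion of PARP2 became 0.11 and 0.20 without PARP2CKO replicate 1. Slamf6, with 34 to 79 counts per library, went from -0.47 to -0.17 without PARP2CKO replicate 2 and to -0.90 without PARP2CKO replicate 1.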

How the results depend on the processing

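Under the settings that kept all libraries, the direction of each receptor's log2 fold change was kept in all 3 comparisons, with Cd84 at 0.00 throughout after deletion of PARP1. After deletion of PARP1, leaving out 1 library turned 2 of 72 values, Slamf1 to -0.32 without PARP1CKO replicate 2 (its range was -0.32 to 0.41) and Ly9 to 0.03 without PARP1 WT replicate 1 (range -0.14 to 0.03), and no receptor was called under any setting. Counts of called genes moved more, and the cause was not tested. Over all genes, deletion of PARP1 gave 14 calls, 86 with DESeq2, 146 with the likelihood-ratio test, 101 with no filter, and 1 to 34 with 1 library left out. Deletion of PARP2 gave 7, then 27, 39, 26, and 4 to 19 in the same order. PARP2 WT against PARP1 WT gave 417, with 910 for the likelihood-ratio test, 872 with no filter, and 85 to 566 with 1 library left out. Among the neighbors, the likelihood-ratio test called 1 after deletion of PARP1, and 2 were called after deletion of PARP2 with it and 2 with no filter. Between the controls 5 neighbors were called, 10 with the likelihood-ratio test, 8 with no filter, 3 with the replicate block, and 1 to 7 with 1 library left out. Same-numbered libraries deviated with correlations of -0.133, 0.147 and -0.0486, so the numbers are not taken to pair them. The replicate block gave 14, 6 and 315 calls over all genes in the 3 comparisons, and the crossed block, added after seeing the data, gave 18 for deletion of PARP1. Counting only by library size, also added later, left 5 receptors and 10 neighbors with PARP2 WT lowest. Low counts limit Slamf1, Slamf6, Kcnj10 and Fcrla, and a missed threshold with 2 libraries a group does not show equal levels.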
